A study of Mus musculus with 24 samples.

Results

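The transcripts of splicing factors and other RNA-binding proteins were examined in the medial prefrontal cortex (mPFC) of 24 mice. Members were chosen by name, with earlier results of these data known, as protein-coding genes whose symbol begins with Srsf and a digit, Hnrnp, Sf3a, Sf3b, U2af, Snrp or Rbm and a digit, together with *Zranb2*, which was added singly. This gave 90 of the 15456 genes measured, of which 13913 are protein coding. There were 34 Rbm genes, 20 Hnrnp genes, 12 Snrp genes, 11 Srsf genes, 9 genes of the Sf3a and Sf3b complexes, 3 U2af genes and *Zranb2*. Of these, 89 had a mean of at least 10 normalized counts, as had 14974 genes in all, and were tested. The exception was *Rbm47*, with a mean of 7.26. Families follow the gene names, and several Rbm proteins are known for roles outside splicing.

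All mice were BALB/C, given in the methods as the substrain BALB/c OlaHsd, a strain with high depressive-like behavior, male according to the methods, 11 postnatal weeks old and housed with 3 to 5 animals in a cage. According to the methods, the control group (n = 6) was given PBS by injection and by gavage. The duloxetine group (n = 6) was injected daily with duloxetine, which blocks the reuptake of serotonin and norepinephrine, at 10 mg per kg. The *R. flavefaciens* group (n = 6) was gavaged with live *Ruminococcus flavefaciens*, an anaerobic gut bacterium, and the combined group (n = 6) was given both. Treatment lasted at least 21 days, and bacteria were given on each of the first 3 days and 2 times a week from then on. Each mouse gave 1 library of poly(A) RNA. The values are normalized counts, that is, reads per gene divided by 1 size factor per mouse. The reads recovered from them ranged from 12811413 to 15607343 per mouse, with a median of 13591497 in control mice, 14536037 under duloxetine, 13943370 under *R. flavefaciens* and 14621656 under both.

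Introns are removed from nuclear RNA by the spliceosome, whose small nuclear ribonucleoproteins (snRNPs) carry the Sm and other core proteins encoded by the Snrp genes. The U2AF dimer recognizes the end of an intron, and the SF3a and SF3b complexes anchor the U2 snRNP at the branch point. SR proteins, encoded by the Srsf genes, mostly promote the use of nearby splice sites, and hnRNP proteins often oppose them, so that the balance between the families shapes alternative splicing, which is extensive in neurons. Many of these genes also splice their own transcripts into forms that stay in the nucleus or are degraded. A count per gene does not separate such forms from the ones that are translated.

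The promoters of 4 of the 6 members that passed a test below are shown first. Members of a functional group that differ between groups of mice invite a look at shared promoter letters, although no single comparison called all 4. Each run holds the 250 bases before the transcription start in RefSeq on GRCm38.p6, read 5′ to 3′ on the strand of the gene. They cover chr3:157533915-157534164 on the plus strand, chr12:80945249-80945498 on the plus strand, chr1:55027479-55027728 on the minus strand and chr13:46418050-46418299 on the plus strand. Capitals mark 5 motifs searched on both strands, the cAMP response element TGACGTCA, the CCAAT box, the GC box GGGCGG, the TATA box TATAAA and the ETS core CCGGAAG.
Zranb2: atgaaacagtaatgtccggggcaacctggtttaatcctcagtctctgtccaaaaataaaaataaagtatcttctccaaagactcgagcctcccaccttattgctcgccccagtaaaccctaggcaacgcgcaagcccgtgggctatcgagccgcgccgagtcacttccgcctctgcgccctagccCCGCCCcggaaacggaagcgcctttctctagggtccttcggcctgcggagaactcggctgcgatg
Srsf5: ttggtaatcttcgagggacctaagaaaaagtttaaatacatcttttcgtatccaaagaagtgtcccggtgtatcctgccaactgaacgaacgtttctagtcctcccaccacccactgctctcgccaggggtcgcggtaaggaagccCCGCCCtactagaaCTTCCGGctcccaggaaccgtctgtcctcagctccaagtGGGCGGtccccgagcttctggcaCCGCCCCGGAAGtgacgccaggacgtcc
Sf3b1: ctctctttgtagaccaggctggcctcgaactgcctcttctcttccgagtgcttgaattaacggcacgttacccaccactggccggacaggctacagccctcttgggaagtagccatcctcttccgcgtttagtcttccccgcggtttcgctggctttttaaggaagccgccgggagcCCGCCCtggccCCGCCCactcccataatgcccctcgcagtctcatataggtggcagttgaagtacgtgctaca
Rbm24: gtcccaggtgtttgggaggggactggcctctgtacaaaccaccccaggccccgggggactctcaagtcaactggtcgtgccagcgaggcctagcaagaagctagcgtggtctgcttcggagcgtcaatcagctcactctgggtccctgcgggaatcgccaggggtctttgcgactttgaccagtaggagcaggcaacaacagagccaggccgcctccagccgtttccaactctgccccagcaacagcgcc
The run of *Zranb2* held a GC box, that of *Sf3b1* a pair of them, and that of *Srsf5* both GC boxes and ETS cores, where a GC box and an ETS core share 1 base. The run of *Rbm24* held none of the 5 motifs. Entries were at hand for 76 members, with 99 starts in all. The GC box was found in 55.6 percent of these, against 32.7 percent of 32851 promoters of all genes, and the ETS core in 23.2 against 6.91 percent. CCAAT was present in 41.4 against 33.8 percent, TATAAA in 11.1 against 12.4 percent and TGACGTCA in 2.02 against 1.55 percent. Members' promoters were richer in G and C, with a median of 60.4 against 52.4 percent. Both RefSeq entries of *Rbm4*, which are not shown, held a CCAAT and a TATA box and neither a GC box nor an ETS core. A match is a run of letters and was not tested as a binding site.

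The members were well expressed. Per kilobase of exon, their median level was 206 normalized counts, against 87.0 for all genes tested. Hnrnp genes had the highest family median, 613, followed by the Srsf genes with 318, the U2af genes with 309, the Sf3a and Sf3b genes with 238, the Snrp genes with 172 and the Rbm genes with 87.1. The highest level of all was that of *Snrpn*, an imprinted gene that encodes the Sm protein of neurons, with 2218 normalized counts per kilobase. Next were *Hnrnpa2b1*, an abundant hnRNP that also takes part in RNA transport, with 1864, and *Srsf5* with 1316. In their own families *Sf3b2*, a subunit of SF3b, led with 946, *U2af2*, the large U2AF subunit, with 822, and *Rbm39*, an SR-like splicing factor, with 670. Reads that fit more than 1 gene limit a few of these levels, since 21.7 percent of the 50-base stretches of *Snrpn* occur in transcripts of other genes, against a median of 0.946 percent over the 90 members.

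**Figure D1:**
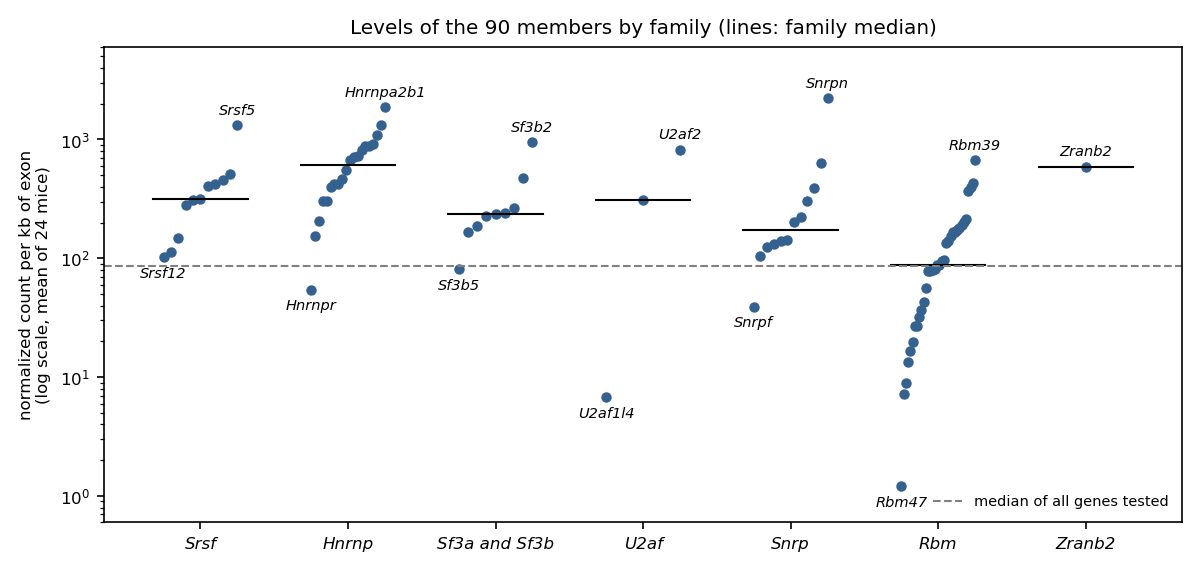
Mean normalized count per kilobase of exon over 24 mice (log axis) for each of the 90 members, as 1 point per gene, by family, with a line at each family median and a dashed line at the median of all genes tested (87.0). Hnrnp genes sit highest as a family, and the Rbm genes reach from 1.22 for *Rbm47* to 670 for *Rbm39*.

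Within groups the members varied little. The SD of log2(normalized count + 1) between mice of a group had a median of 0.104 over members, against 0.154 over all genes tested, which also lie lower in level. It was smallest for *Sf3b2*, with 0.0462. Of the 89 members tested it was largest for *U2af1l4*, a paralog of the small U2AF subunit, with 0.554, followed by *Rbm38* with 0.352 and *Rbm3* with 0.305. By group, the members' median SD was 0.0673 in control mice, 0.0927 under duloxetine, 0.121 under *R. flavefaciens* and 0.101 under both, and all genes followed the same order with 0.116, 0.128, 0.179 and 0.152. Members held 0.683 ± 0.0154 percent of all normalized counts in the control (SD, n = 6), 0.684 ± 0.0152 in the duloxetine (n = 6), 0.694 ± 0.0247 in the *R. flavefaciens* (n = 6) and 0.707 ± 0.0154 in the combined group (n = 6), and the groups overlapped.

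The tissue label was checked against marker genes. All 6 markers of excitatory neurons were well above 0, led by *Camk2a*, with a summed mean of 101600 normalized counts in the control, while the 3 listed markers of choroid plexus, led by *Kl*, summed to 51.9. One mouse stood apart, the *R. flavefaciens* treated mouse 8_4, with 791 normalized counts for the choroid plexus markers, against 25.5 to 152 in the other mice. It also had 4720 for the 6 markers of striatum, led by *Ppp1r1b*, against 1113 to 2748 elsewhere. Results below are therefore also given without mouse 8_4 where a count of members moved by more than 1.5 times. In whole tissue, fewer cells of a type and less RNA per cell cannot be told apart.

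All comparisons come from a single limma fit of 4 groups on log2(normalized count + 1), with p-values adjusted by the Benjamini-Hochberg method over 14974 genes and a threshold of 0.05. Comparisons share mice (the combined group enters 3 of the 5 comparisons of single groups), so they are not independent of each other. Over 8 comparisons, 6 members passed at least 1 test and 83 passed none. Among the 6 is *Zranb2*, added singly with earlier results of these data known, so its calls do not speak for the other families. At an unadjusted p under 0.05, 50 members were counted in at least 1 comparison and 39 in none.

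In the fit of all 4 groups, the largest number of changes was found when duloxetine was added to *R. flavefaciens*, that is, in the combined against the *R. flavefaciens* group. Of 89 members, 4 rose, *Zranb2*, *Srsf5*, *Sf3b1* and *Rbm4*, and 1 fell, *Snrpb*, while 2.23 percent of all genes tested were called (334 genes, 160 higher and 174 lower). At an unadjusted p under 0.05, 14 members were higher, where 9.76 percent of all genes were, and 22 were lower, where 9.9 percent were. The median log2 fold change of the members was -0.01, against 0.00 for all genes. The groups did not overlap for 5 members, *Zranb2*, *Sf3b1*, *Rbm4*, *Sf3b2* and *Rbm6*, and for 1.44 percent of all genes tested. Without mouse 8_4, 8 members and 3.85 percent of all genes passed. Without mouse 12_4 of the combined group it was 9 members and 3.17 percent, and without mouse 11_3 of that group 2 members and 0.314 percent. In a limma fit of these 12 mice alone, 0 members and 0 genes passed, while a fit of the combined and the control group alone gave 4 members and 1.31 percent of all genes, so that the order of these comparisons by calls turned. With all 4 groups in the fit, edgeR called the same 5 members as limma (2.18 percent of all genes), and DESeq2 called 12 members and 4.07 percent of all genes. After removal of a trend of each mouse's values on transcript length, 5 members were higher and 5 lower, and all genes split into 129 higher and 281 lower, while scaling to the 75th percentile gave 186 and 106 with the same 5 members.

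*Zranb2* encodes a zinc finger protein with an SR-like domain that binds single-stranded RNA and takes part in splice site choice. The gene lies on the plus strand at chr3:157534160-157548410 (GRCm38). Its normalized counts had a lowest, median and highest value of 1563, 1642 and 1827 in control mice, 1685, 1795 and 1891 under duloxetine, 1616, 1680 and 1703 under *R. flavefaciens* and 1788, 1956 and 2123 under both. Every mouse of the combined group lay above every *R. flavefaciens* treated mouse, and 5 of the 6 lay above the highest duloxetine treated mouse. Against *R. flavefaciens* alone the log2 fold change was 0.23 ± 0.04 (SE; limma, adjusted p = 0.00943). Against control, *Zranb2* rose by 0.24 ± 0.04 on the log2 scale (limma, adjusted p = 0.0188), with all 6 mice of the combined group above the control mean. This call was lost without mouse 2_1, 2_3 or 3_1 of the control or mouse 10_2 or 11_3 of the combined group, with an adjusted p of up to 0.0934 (limma). None of its 50-base stretches is shared with another gene.

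*Srsf5*, an SR protein that binds exonic enhancers, lies at chr12:80945504-80950507, plus strand. Its lowest, median and highest normalized counts were 1676, 1962 and 2286 in control mice, 1785, 2249 and 2420 under duloxetine, 1185, 1827 and 2365 under *R. flavefaciens* and 2341, 2692 and 2984 under both. All mice of the combined group were above all controls, and only 1 *R. flavefaciens* treated mouse, 8_4, reached into their range. The log2 fold change against *R. flavefaciens* was 0.62 ± 0.12 (SE), a fold of 1.54 (limma, adjusted p = 0.0125). Against control it was 0.45 ± 0.12, which did not pass (limma, adjusted p = 0.107). Without mouse 9_1, the lowest of the *R. flavefaciens* group, the former value was 0.51.

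*Sf3b1*, the SF3b subunit that touches the branch point, lies at chr1:54985169-55027481, minus strand. Its lowest, median and highest normalized counts were 2780, 2892 and 3018 in control mice, 2574, 2935 and 3145 under duloxetine, 2479, 2712 and 3004 under *R. flavefaciens* and 3055, 3185 and 3552 under both. The combined group was above all control and all *R. flavefaciens* treated mice and overlapped the duloxetine group. The log2 fold change against *R. flavefaciens* was 0.24 ± 0.05 (SE; limma, adjusted p = 0.0187), and 0.21 without mouse 11_3, where the call was lost (limma, adjusted p = 0.0648).

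The other Sf3a and Sf3b genes lay on the other side of 0. In the same comparison 8 of the 9 genes had a log2 fold change below 0, while *Sf3b1* was the only 1 above 0. At an unadjusted p under 0.05, 5 of the 9 were lower, where 9.9 percent of all genes were. The family median was -0.12. The median was between -0.13 and -0.11 under 3 other scalings, and -0.09 without mouse 9_3. *Sf3b2* had a lowest, median and highest normalized count of 3005, 3114 and 3340 in the *R. flavefaciens* and 2739, 2962 and 3004 in the combined group, so that these groups just failed to overlap, with a log2 fold change of -0.11 that did not pass (limma, adjusted p = 0.0985).

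*Snrpb* encodes the SmB protein of the ring around the snRNAs and lies at chr2:130171414-130179403, minus strand. Its lowest, median and highest normalized counts were 708, 739 and 778 in control mice, 675, 710 and 772 under duloxetine, 718, 786 and 900 under *R. flavefaciens* and 588, 674 and 721 under both. The mice of the combined group were all below the *R. flavefaciens* mean, and only mouse 10_2 of them overlapped that group. *Snrpb* fell by 0.25 ± 0.05 on the log2 scale (SE; limma, adjusted p = 0.0171), and without mouse 11_3, the lowest, by 0.22, where the call was lost (limma, adjusted p = 0.0571).

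For the combined against the *R. flavefaciens* group, 10 of 12 Snrp genes had a log2 fold change below 0, with a median of -0.10. The family as a whole was not tested. At an unadjusted p under 0.05, 4 of 12 were lower, where 9.9 percent of all genes were. Beside *Snrpb* these were *Snrpd2*, *Snrpg* and *Snrpa*, and none of these 3 passed after adjustment. Without mouse 9_3, 7 of 12 were below 0 and the median was -0.08, and without mouse 11_3 the 4 became 2.

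*Rbm4*, a regulator of alternative exons, was measured with few reads and had the largest log2 fold change of the 5. It lies at chr19:4784293-4793901, minus strand. Its lowest, median and highest normalized counts were 26.8, 37.5 and 52.2 in control mice, 30.5, 38.6 and 54.0 under duloxetine, 21.4, 27.7 and 33.5 under *R. flavefaciens* and 36.8, 42.5 and 54.1 under both. The *R. flavefaciens* and the combined group did not overlap, and both overlapped the other groups. The log2 fold change between them was 0.68 ± 0.16 (SE; limma, adjusted p = 0.0292). Its count is uncertain, since 57.5 percent of its 50-base stretches are found in transcripts of other genes and its exons overlap those of *Gm21992* on the same strand. Leaving out mouse 7_2, 9_3, 11_3 or 12_3 ended the call, with an adjusted p of up to 0.0859 (limma).

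**Figure D2:**
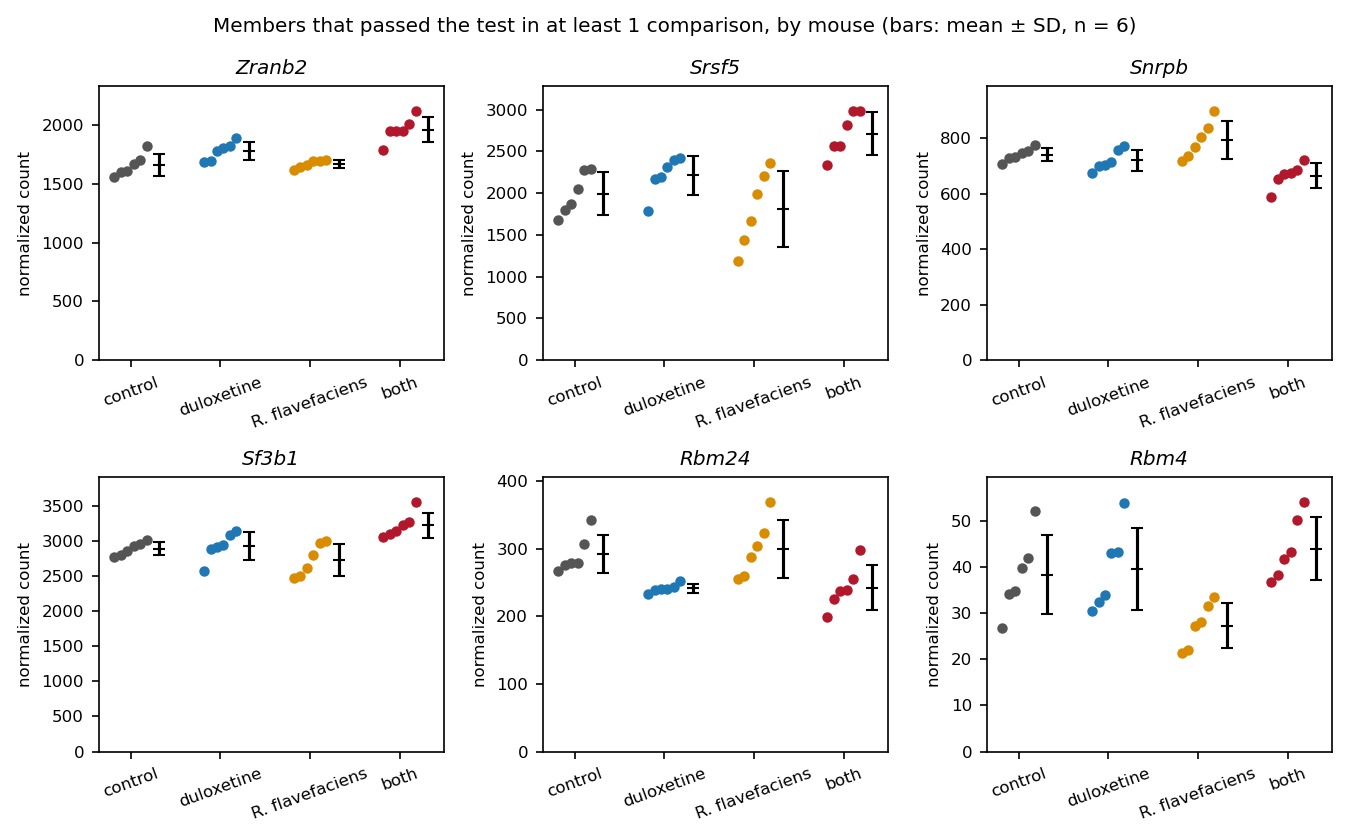
Normalized counts of the 6 members that passed a test, with 1 point per mouse, by group, and the mean ± SD (n = 6) beside the points. *Zranb2*, *Srsf5* and *Sf3b1* are highest in the combined group, and *Rbm24* is low in both groups given duloxetine.

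When the 12 mice given duloxetine were compared with the 12 not given it, 3 members passed, with *Zranb2* and *Srsf5* higher and *Rbm24* lower, and 1.03 percent of all genes were called. By edgeR 3 members and 0.935 percent of all genes passed, and by DESeq2 5 members and 2.16 percent. At an unadjusted p under 0.05, 10 members were higher (7.44 percent of all genes) and 14 lower (7.49 percent), and the median of the members was -0.01. *Rbm24*, which binds transcripts in muscle and elsewhere and governs their splicing and stability, lies at chr13:46418434-46431095, plus strand. Its lowest, median and highest normalized counts were 267, 278 and 342 in control mice, 233, 241 and 253 under duloxetine, 256, 296 and 369 under *R. flavefaciens* and 199, 238 and 298 under both. The duloxetine group lay wholly below the control group, while the combined group overlapped both. *Rbm24* fell by 0.29 ± 0.06 on the log2 scale (SE; limma, adjusted p = 0.0248), *Zranb2* rose by 0.17 ± 0.03 (adjusted p = 0.0116, limma) and *Srsf5* by 0.39 ± 0.09 (adjusted p = 0.0304, limma). Without mouse 8_4, 6 members and 1.44 percent of all genes passed, and without mouse 5_1 of the duloxetine group 5 members and 1.46 percent. Without mouse 3_1 of the control or mouse 11_3 of the combined group 1 member, *Zranb2*, passed, with 0.307 and 0.334 percent of all genes. The call of *Srsf5* was also lost without mouse 2_1, 5_3 or 12_2, with an adjusted p of up to 0.0643 (limma). All genes called split into 74 higher and 80 lower, into 79 and 209 with the length trend removed and into 97 and 47 at the 75th percentile. The members split into 2 and 1, and into 2 and 3 with the length trend removed.

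For duloxetine alone against control, 0 members and 0 percent of all genes passed (limma). By unadjusted p (under 0.05), 1 member, *Zranb2*, was higher (2.2 percent of all genes) and 1, *Rbm24*, was lower (1.63 percent), and edgeR and DESeq2 called 0 members as well. *Rbm24* was the only member whose groups did not overlap, where 0.334 percent of all genes had groups that did not, and its log2 fold change of -0.27 ± 0.09 (SE) did not pass over all genes (limma, adjusted p = 1.00). Its rank by p was 64 of 14974 genes.

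For *R. flavefaciens* alone against control, 0 members passed (limma), with 0.0267 percent of all genes called, and edgeR called 0 members and 4 genes in all. DESeq2 called *Snrpd2* and *U2af1*, and 5.6 percent of the 8877 genes to which it gave an adjusted p. Counted at an unadjusted p under 0.05, 9 members were higher (8.86 percent of all genes) and 5 were lower (10.8 percent). *Snrpd2*, which encodes the Sm protein D2, had a lowest, median and highest normalized count of 501, 527 and 548 in the control and 557, 604 and 830 in the *R. flavefaciens* group. It was the only member whose groups did not overlap, where 1.62 percent of all genes had groups that did not, and the highest value came from mouse 9_3. Its log2 fold change was 0.26 ± 0.07 (SE; limma, adjusted p = 0.0727), and 0.17 with the length trend removed. *U2af1*, the small subunit that reads the last bases of the intron, had 310, 314 and 335 normalized counts in the control and 329, 377 and 429 in the *R. flavefaciens* group, with a log2 fold change of 0.23 ± 0.06 (SE; limma, adjusted p = 0.0795). With the length trend removed it was 0.11 (limma, adjusted p = 0.47). All 12 Snrp genes had a log2 fold change above 0, or 8 of 12 with the trend on transcript length removed. The median was 0.10 (0.03 with that trend removed) against 0.00 for all genes, and 3 of them, *Snrpd2*, *Snrpg* and *Snrpb2*, were at an unadjusted p under 0.05. Snrp transcripts are short, with a median exonic length of 1406 against 3374 bases for all genes. Without mouse 9_3, which had the highest mean over the Snrp genes of all mice, all 12 were above 0 with a median of 0.07, and 7 members in place of 14 were at an unadjusted p under 0.05, with 11.5 in place of 19.6 percent of all genes. Without mouse 8_3, 2 members and 2.85 percent of all genes passed, and without mouse 9_1 or 9_2 it was 1 member, with 1.6 and 4.11 percent.

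Against control, the combined group had *Zranb2* as its only changed member, with 0.1 percent of all genes called, and edgeR called it too (0.114 percent of all genes). *Zranb2* is the member that was added singly, and no gene of the other families passed (limma). DESeq2 called 5 members and 1.68 percent of the 12941 genes to which it gave an adjusted p. Without mouse 12_4, 3 members and 1.03 percent of all genes passed. With no adjustment of p (under 0.05), 11 members were higher (8.08 percent of all genes) and 13 were lower (8.73 percent), and the members' median was 0.01. The groups did not overlap for 5 members and 2.04 percent of all genes. Of these 5, *Srsf5*, *Sf3b1*, *Srsf11* and *Rbm25* were higher and *Rbm15b*, which helps to direct RNA methylation, was lower. *Srsf11*, an SR-related factor, had a lowest, median and highest normalized count of 1206, 1270 and 1321 in the control and 1363, 1514 and 1724 in the combined group, and *Rbm25*, a U1-associated factor, 1412, 1525 and 1568 against 1686, 1800 and 1988. Both had a log2 fold change of 0.27, with an SE of 0.08 and 0.07, and an adjusted p of 0.118 and 0.0849 (limma). In this comparison 3 Srsf genes were higher and 2 lower at an unadjusted p under 0.05, and 4 of 9 Sf3a and Sf3b genes were lower, with a family median of -0.06. That median was -0.04 after quantile normalization, -0.02 with scaling to the 75th percentile and -0.10 with the length trend removed. The median of all genes was -0.00605, 0.0323 and -0.0245 in the same order.

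For *R. flavefaciens* added to duloxetine, 0 members and 0 percent of all genes passed (limma), and edgeR and DESeq2 called 0 members too. The groups overlapped for every member, while 0.254 percent of all genes had groups that did not. By unadjusted p (under 0.05), 10 members were higher (3.02 percent of all genes) and 5 were lower (2.88 percent), and without mouse 5_1 of the duloxetine group the 15 became 5, while the share of all genes went from 5.9 to 4.21 percent. *Zranb2* had the smallest p of the members, with a log2 fold change of 0.14 ± 0.04 (SE; limma, adjusted p = 0.816), and all 6 mice of the combined group were above the duloxetine mean. Over all 12 mice given *R. flavefaciens* against the 12 not given it, 0 members passed (limma), with 0.0267 percent of all genes called, and edgeR called 0 members and 4 genes in all. Without mouse 8_3, 1 member and 0.902 percent of all genes passed, and without mouse 9_2 0 members and 0.461 percent (limma). DESeq2 called 3 members, *Rbm25*, *Snrpd2* and *U2af1*, and 4.51 percent of the 8006 genes to which it gave an adjusted p. Here 9 members were higher (7.68 percent of all genes) and 5 were lower (10.4 percent) at an unadjusted p under 0.05, of which 4 of the 9 were Snrp genes. With the length trend removed, 1 Snrp gene was higher and 1 lower, and the family median was 0.01 in place of 0.08. Without mouse 9_3 the 4 became 2.

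The interaction, which asks whether duloxetine acted differently with the bacterium than without it, was called for 0 members and 0 percent of all genes, also by edgeR and DESeq2. At an unadjusted p under 0.05 there were 5 members above 0 (3.86 percent of all genes) and 9 below 0 (3.67 percent). The 3 with the smallest p above 0 were *Sf3b1*, with an interaction of 0.23 ± 0.08 on the log2 scale (SE), *Rbm4* with 0.63 ± 0.23 and *Srsf5* with 0.47 ± 0.17 (limma, adjusted p = 0.639 for each). Below 0 they were *Snrpb* with -0.21 ± 0.08, *Rbm8a*, of the exon junction complex, with -0.19 ± 0.07 and *Sf3a2* with -0.18 ± 0.07 (limma, adjusted p = 0.639 for each). Without mouse 5_1 the 14 became 8, and the share of all genes went from 7.53 to 5.56 percent. A response of *Srsf5*, *Sf3b1*, *Snrpb* or *Rbm4* to duloxetine that is particular to mice given *R. flavefaciens* was not shown.

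**Figure D3:**
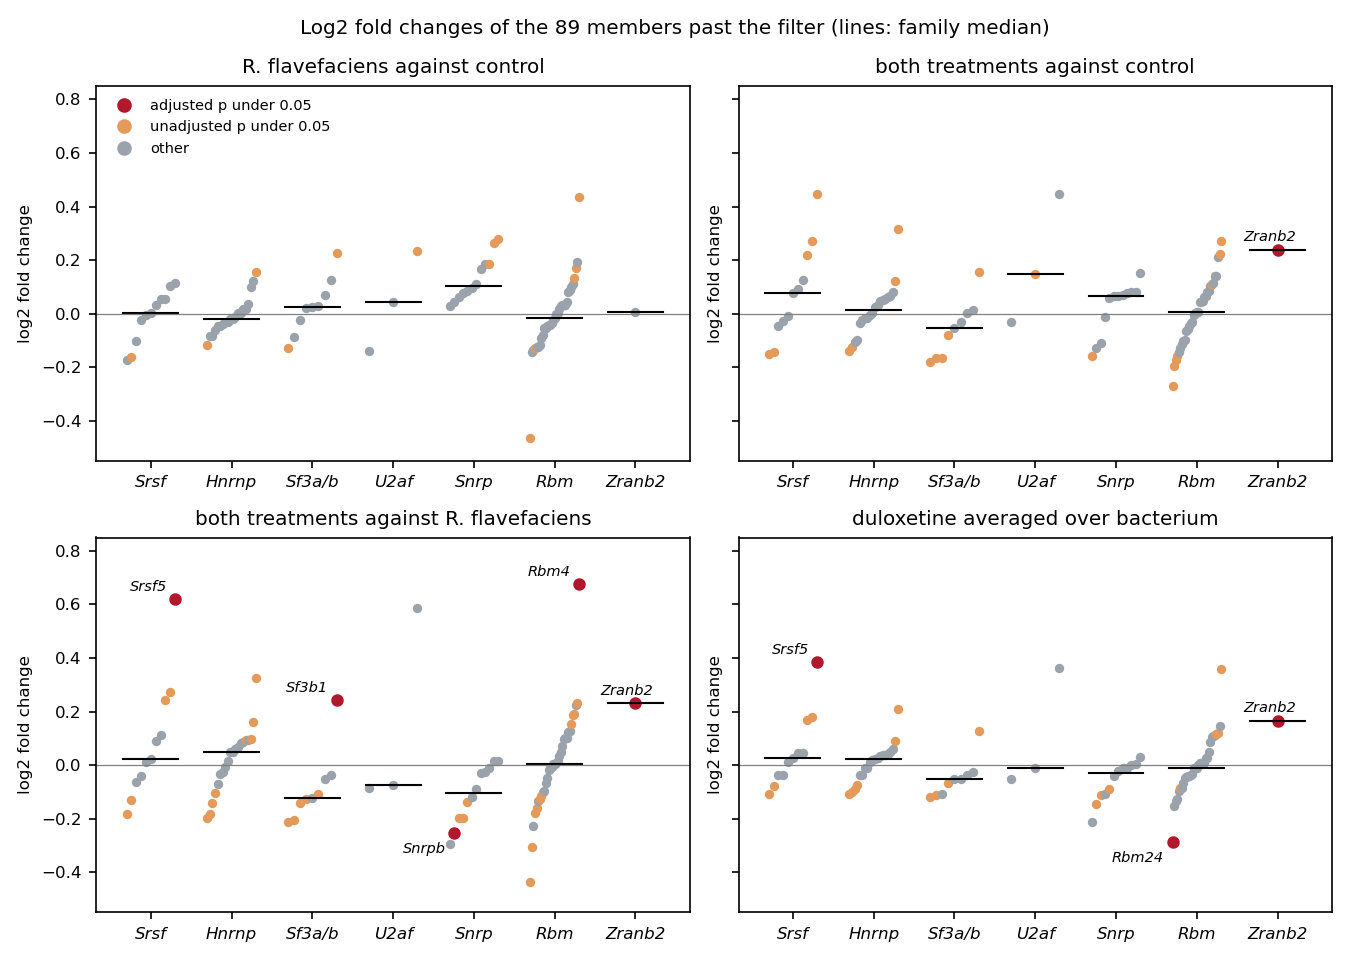
Log2 fold changes of the 89 members tested in 4 comparisons, with 1 point per gene, by family, red where the adjusted p was under 0.05, orange where only the unadjusted p was, and a line at each family median. The Snrp genes lie above 0 for *R. flavefaciens* against control (median 0.10, and 8 of 12 above 0 with the length trend removed) and mostly below 0 for the combined against the *R. flavefaciens* group (median -0.10).

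Within the Srsf and the Hnrnp family, genes lay on both sides of 0. Among the Srsf genes, *Srsf5*, *Srsf6* and *Srsf11* were higher in the combined than in the *R. flavefaciens* group at an unadjusted p under 0.05, with log2 fold changes of 0.62, 0.24 and 0.27, while *Srsf10* and *Srsf3* were lower, with -0.18 and -0.13. Of these *Srsf5* alone passed. Among the Hnrnp genes, *Hnrnpdl*, whose product controls its own splicing, had the largest value, 0.33 ± 0.10 (SE; limma, adjusted p = 0.0629), and *Hnrnpf* and *Hnrnpm* had -0.18 and -0.20. The plus and minus values of this family counted 4 and 4 at an unadjusted p under 0.05, and its median was 0.05, or -0.02 with the length trend removed. Of all genes, 9.76 percent were higher and 9.9 percent lower at that p in this comparison. With the length trend removed, the median of all genes was -0.0288. *Rbm3*, an RNA-binding protein induced by cold, had a lowest, median and highest normalized count of 571, 698 and 789 in control mice, 603, 652 and 806 under duloxetine, 627, 822 and 916 under *R. flavefaciens* and 386, 646 and 1022 under both. The combined group alone spanned the values of all other mice, and no comparison of *Rbm3* came to an unadjusted p under 0.05.

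**Figure D4:**
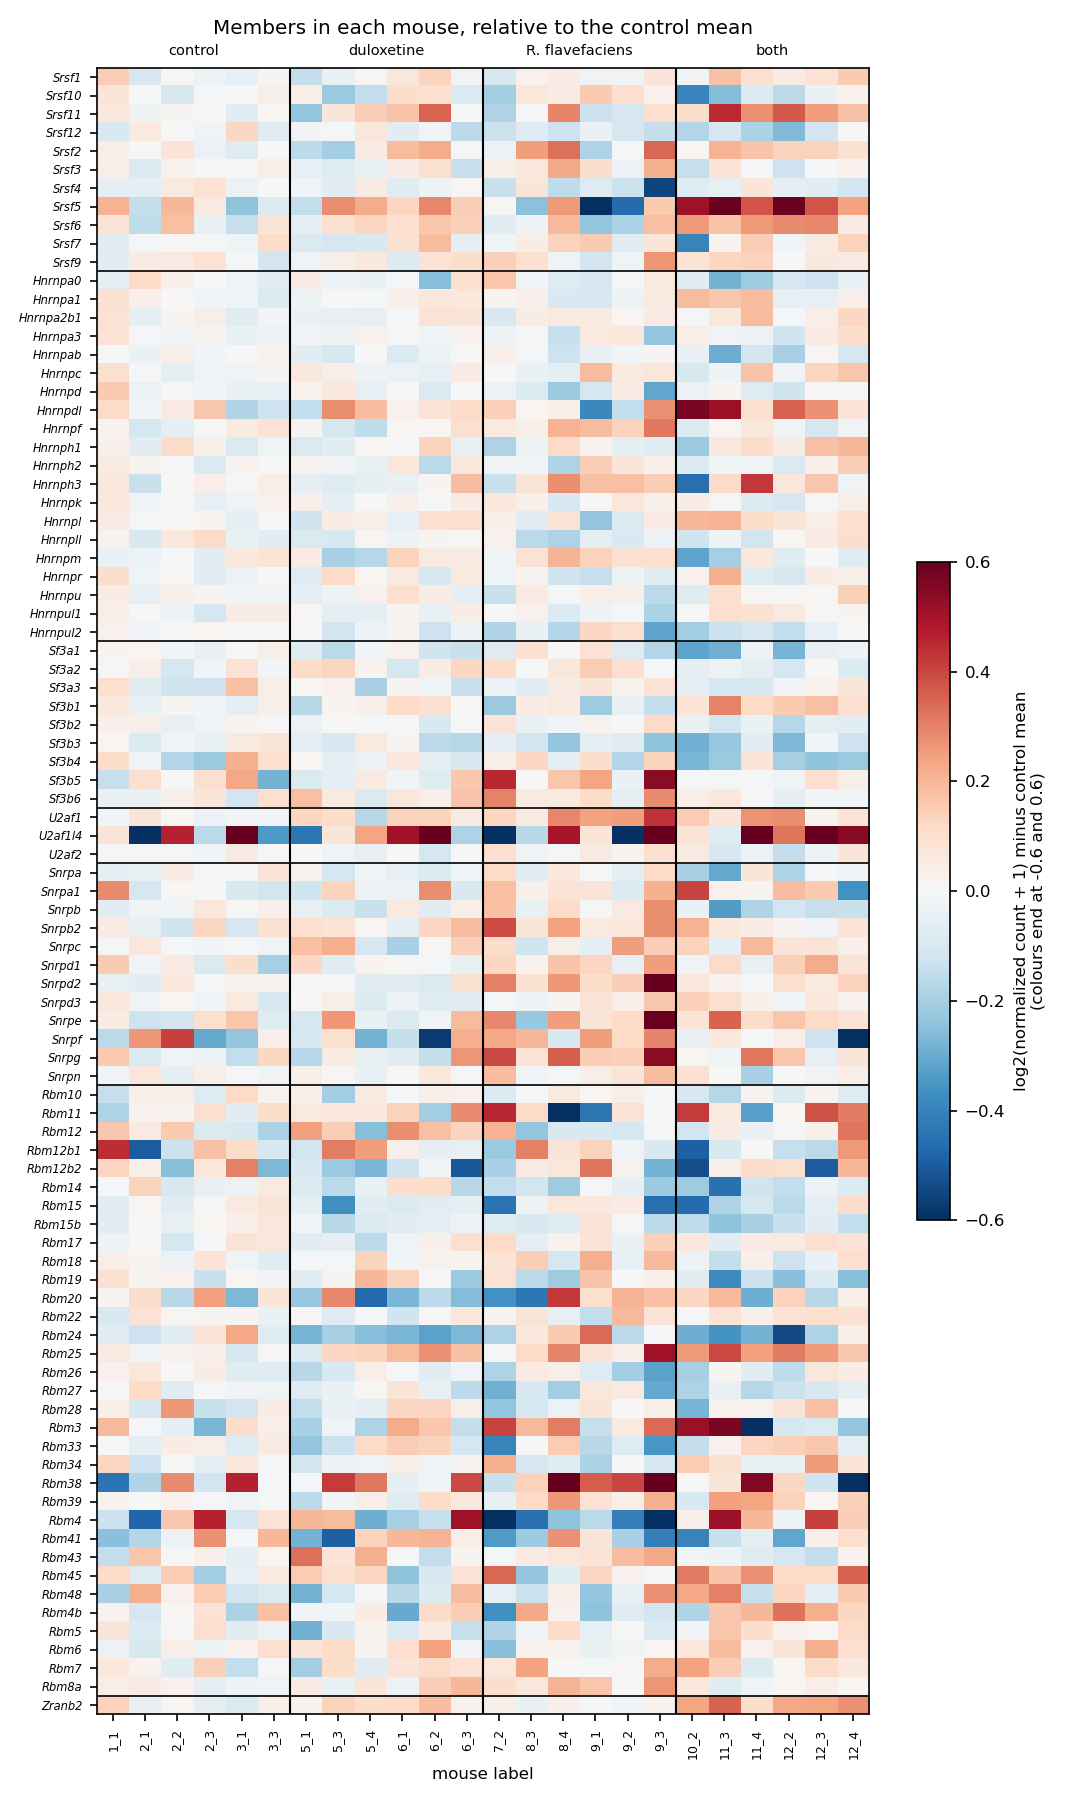
Each of the 89 members tested (rows, by family) in each of the 24 mice (columns, by group), as log2(normalized count + 1) minus the control mean, with colours that end at -0.6 and 0.6. *Zranb2* and *Srsf5* are raised across the combined group, *Rbm24* is lowered in the 6 duloxetine treated mice, and the Snrp genes are raised most in mouse 9_3.

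Other genes of the pathway, from further lists, were read in the same way for the combined against the *R. flavefaciens* group, where 2.23 percent of all genes passed. In the tri-snRNP and spliceosome core, with a list median of -0.04 over 60 genes, 3 genes passed, 2 higher and 1 lower. Among them *U2surp*, a U2-associated SR-like protein, rose by 0.16 and *Lsm4*, a subunit of the ring on the U6 snRNA, fell by 0.25 on the log2 scale (limma, adjusted p = 0.0497 and 0.0495). One of 13 RNA helicases rose, *Ddx46*, which acts with SF3b at the branch point (log2 fold change 0.23, limma, adjusted p = 0.0241). Of 27 SR-related proteins 3 rose, *Srrm1*, *Nktr* and *Pnisr*, with log2 fold changes of 0.27, 0.48 and 0.44 and a list median of 0.08. Among 34 tissue-specific regulators 2 rose, *Tia1* and *Tial1*, which bind U-rich sequence behind weak splice sites, and *Pcbp1* fell. Except for *Ddx46*, *Srrm1*, *Pcbp1* and *Dnajb1*, the genes named here from these lists were chosen after their values were seen. None of 10 SR protein kinases and none of 15 genes of the exon junction complex and nonsense-mediated decay passed. Of 9 cold and heat responsive genes 2 fell, *Dnajb1*, a heat shock cochaperone, by 0.47 and *Hspb1*, a small heat shock protein, by 0.82 on the log2 scale. These calls come from the fit of all 4 groups. In the limma fit of only the groups compared, 0 genes passed in all, so every gene of these lists lost its call.

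For duloxetine averaged over the bacterium, where 1.03 percent of all genes passed, the genes of these lists reported here include *Tial1*, which rose by 0.16, and *Pcbp1* and *Dnajb1*, which fell by 0.12 and 0.33, on the log2 scale (limma). In the other 6 comparisons no gene of these lists passed (limma).

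Nuclear long noncoding RNAs and some cell type markers were also uneven between the groups. The 8 nuclear long noncoding RNAs, led by *Meg3*, summed to a lowest, median and highest normalized count of 34630, 42080 and 48590 in control mice, 27710, 47020 and 60870 under duloxetine, 29810, 36490 and 58640 under *R. flavefaciens* and 43970, 53730 and 64470 under both. In the combined group 6 of the 8 were higher than in control at an unadjusted p under 0.05 (list median 0.41), where 8.08 percent of all genes were. Against the *R. flavefaciens* group 4 of 8 were higher (0.38), with 9.76 percent of all genes. For duloxetine averaged over the bacterium 7 of 8 were higher (0.30), with 7.44 percent of all genes. None passed in any of these comparisons (limma). In mice 7_2, 9_1, 9_2 and 5_1, which had the lowest sums, *Srsf5* had 1988, 1185, 1435 and 1785 normalized counts, and in mice 12_2, 11_3, 6_2 and 8_4, which had the highest, it had 2977, 2984, 2420 and 2365. *Zranb2* had 1703, 1666, 1642 and 1685 in the former and 1949, 2123, 1891 and 1697 in the latter, so that mouse 8_4, with a high sum, was within the range of the mice with low sums for *Zranb2*. The part of this RNA class in the result was not tested.

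**Figure D5:**
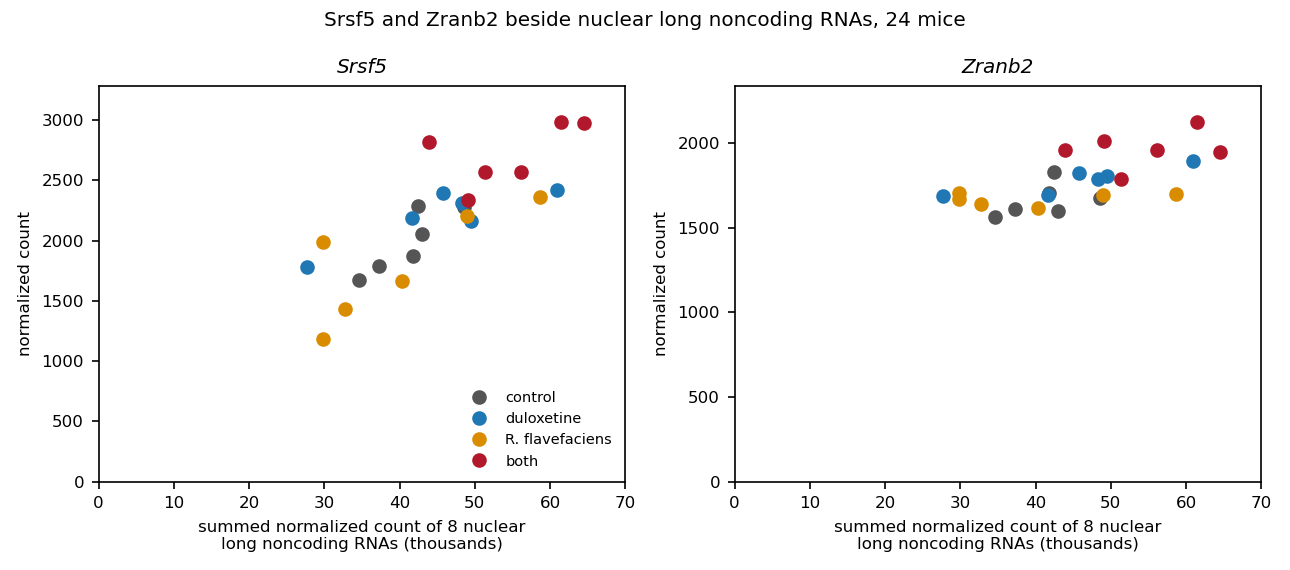
Normalized counts of *Srsf5* (left) and *Zranb2* (right) against the summed normalized count of 8 nuclear long noncoding RNAs, with 1 point per mouse, coloured by group. Mice 9_1 and 9_2, with low sums, have the lowest *Srsf5* counts (1185 and 1435), while mouse 7_2, with the lowest sum of the *R. flavefaciens* group, has 1988. The combined group lies high for *Srsf5*, at sums from 43970 to 64470 that overlap those of other groups.

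The 5 blood markers, led by *Hbb-bs*, summed to a median of 350 normalized counts in control mice, 354 under duloxetine, 535 under *R. flavefaciens* and 470 under both, with a range over all mice from 275 to 1090. All 5 were higher in the combined group than in control at an unadjusted p under 0.05 (8.08 percent of all genes). In the *R. flavefaciens* group 4 of 5 were higher than in control (8.86 percent), and 0 of 5 differed so between these treated groups. The 6 microglia markers, led by *Csf1r*, had a median sum of 3307, 3778, 3652 and 3789 normalized counts in the control, duloxetine, *R. flavefaciens* and combined group, and 4 of 6 were higher than in control at an unadjusted p under 0.05 for duloxetine and for both treatments, and 3 of 6 for *R. flavefaciens*. Between the combined group and control 3 of 6 astrocyte and 2 of 6 endothelial and pericyte markers were also higher at an unadjusted p under 0.05. So were 1 of 6 inhibitory neuron and 1 of 3 choroid plexus markers. Between the *R. flavefaciens* group and control 1 of 6 astrocyte and 1 of 3 choroid plexus markers were higher at that p. The 6 markers of inhibitory neurons, led by *Gad1*, had a median sum of 9994, 10030, 10950 and 10310 in the same order, with 3 of 6 higher in the *R. flavefaciens* group than in control and 2 of 6 lower in the combined than in the *R. flavefaciens* group at an unadjusted p under 0.05. In the latter comparison 1 of 6 astrocyte markers (*Aldoc* the most abundant) was higher, 1 of 6 endothelial and pericyte markers (*Rgs5*) was higher and 1 lower, and 0 of 6 oligodendrocyte (*Mbp*), 0 of 4 oligodendrocyte precursor (*Olig1*), 0 of 6 microglia, 0 of 6 striatum and 0 of 3 choroid plexus markers came to an unadjusted p under 0.05. Of the markers of excitatory neurons, 0 of 6 had an unadjusted p under 0.05 between the combined and the *R. flavefaciens* or the control group. There were 1 higher and 1 lower for *R. flavefaciens* against control, 1 lower for both against duloxetine, and 1 higher and 2 lower for *R. flavefaciens* averaged over duloxetine. In this last comparison 4 of 5 blood, 2 of 6 microglia, 2 of 6 inhibitory neuron and 2 of 3 choroid plexus markers were higher. So were 1 of 6 astrocyte and 1 of 6 endothelial and pericyte markers (7.68 percent of all genes). For duloxetine averaged over the bacterium, 2 of 6 microglia and 1 of 6 astrocyte markers were higher at an unadjusted p under 0.05 (7.44 percent of all genes). Of the endothelial and pericyte markers 2 of 6 were higher and 1 lower, and 1 of 6 inhibitory neuron markers was lower (7.49 percent of all genes lower). The other marker lists had none at that p there. None of the 10 marker lists had a gene that passed in any comparison (limma). The part of these cell types in the members' values was not tested.

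The members also share sequence and position with other genes, which bears on their counts. Of the 90 members, 20 had more than 10 percent and 4 more than 50 percent of their 50-base stretches in transcripts of other genes. The 4 were *U2af1l4* with 66.1, *Rbm12b1* with 59.7, *Rbm4* with 57.5 and *Rbm12b2* with 55.1 percent. *Srsf5* had 10.1, *Sf3b1* 0.443 and *Snrpb* 0.0486 percent, and *Rbm24* had none. In 40 members an exon overlaps an exon of another gene, on the opposite strand in 32. The library kit does not mark strand, so reads of pairs on opposite strands cannot be told apart where they overlap. Of the 6 members that passed a test, *Rbm4* alone overlaps another gene, *Gm21992*, and this overlap is on the same strand.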

How the data were processed

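The authors isolated RNA from punches of mPFC, enriched poly(A) RNA, prepared libraries with a NEBNext Ultra kit and sequenced them on an Illumina instrument. According to their methods reads were aligned to GRCm38 with TopHat2, while the submitters' notes name mm9, TopHat2 2.1.0, Bowtie2 2.2.6 and DESeq2 1.18.1. The deposited gene table holds a signal, gene counts divided by 1 DESeq2 size factor per mouse, for 15456 genes. Its gene positions match GENCODE on GRCm38 for 81 of 90 members.

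Columns were matched to 24 mice by their descriptions, and 0 columns were left out. Whole reads were recovered from the step sizes of low values (99.99703 percent of 370875 values above 0 came out whole within 0.0051). Genes with a mean of at least 10 were tested with limma 3.58.1 (R 4.3.3), with an intensity trend, on log2(normalized count + 1), all 4 groups in 1 fit, in 8 two-sided comparisons with Benjamini-Hochberg adjustment over 14974 genes. Fold changes on this scale understate those of low genes. Alternatives were another pseudocount, filters, scalings, a length trend, a random block, edgeR 4.0.16 and DESeq2 1.42.0 on recovered reads, and leaving out each mouse. Promoters and 50-base stretches were read with Python 3.11.15.

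Named genes are members that passed a test, the 3 higher and 3 lower with the smallest p in each comparison, the highest of each family, *Zranb2*, *Rbm3* and the gene with the smallest p of each other list, or the most abundant marker. Other genes named were chosen after their values were seen. The members and lists were chosen with earlier results of these data known. In the main fit the p-values measure the spread between mice of a group, pooled over the 4 groups. That spread was unequal, with a median SD over all genes of 0.116 in control mice and 0.128 under duloxetine. It was 0.179 under *R. flavefaciens* and 0.152 under both, so a comparison of these last groups was judged with a pooled spread. No source says which mice shared a cage. The first number of each mouse label is nested in a group, so what it marks and the group cannot be told apart. Pairs of mice of a group differed by more than counting noise, with a chi-square of 2.11 to 26.8 times its degrees of freedom in the 60 pairs. Some genes of the further lists are not reported here.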

Additional observations from a re-analysis of the deposited data

Results flagged for a closer look

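Of 132 groups of 6 mice examined, for named members and for family scores (the mean over genes of log2(normalized count + 1) minus the gene's mean), 8 held a mouse whose gap to the nearest other mouse was larger, as a share of the group's range, than the critical value of Dixon's test. Chance gives such a gap in about 1 of 20 groups.

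Mouse 7_2 of the *R. flavefaciens* group was lowest in *Hnrnpa2b1*, with 4182 normalized counts against 4495 in the next mouse, and in *Rbm6*, with 504 against 584. In the same group mouse 9_3 was highest in *Snrpd2*, with 830 against 646. Among the controls, mouse 1_1 had 2361 normalized counts of *Hnrnpd*, a destabilizer of AU-rich mRNAs, against 2100 in the next mouse, mouse 2_1 had 335 of *U2af1* against 319, and mouse 3_1 had 1931 of *U2af2* against 1854. In the duloxetine group mouse 5_4 was lowest in *U2af1*, with 282 against 329. Mouse 10_2 of the combined group had the lowest score of the Srsf family, -0.0442 against 0.0517 in the next mouse.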

How the results depend on the processing

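No paired analysis was possible because the groups share no replicate numbers. Alternatives are reported gene by gene for the named members and not for the genes of the further lists or the markers. Of those for single members, 1583 left the call as it was, 39 brought a member past the threshold, 23 took it below and none turned a direction. With an adjusted p under 0.1, 2, 2, 13, 6 and 1 members passed for *R. flavefaciens* against control, both against control, both against *R. flavefaciens*, duloxetine averaged and *R. flavefaciens* averaged, in place of 0, 1, 5, 3 and 0, while 3.87, 0.841, 5.62, 2.5 and 1.34 percent of all genes did. DESeq2 gave 2, 5, 12, 5 and 3 in the same order, and edgeR gave the counts of limma. With the length trend removed, both against control gave 2 (55 genes in all), both against *R. flavefaciens* 10 and duloxetine averaged 5. The random block, whose estimated correlation was negative (-0.0451), gave 1 for *R. flavefaciens* against control and 10 for both against *R. flavefaciens*, and 221 and 533 genes in all in place of 4 and 334. In fits of only the groups compared, 4 members passed for both against control (196 genes in all, in place of 15), 0 for both against *R. flavefaciens*, and 4 in place of 2 had an unadjusted p under 0.05 for duloxetine against control (7.03 in place of 3.83 percent of all genes), where removing the length trend gave 1 (4.18 percent). The cause was not tested. The members' median moved from 0.01 to 0.0355 (quantile normalization) and 0.0383 (75th percentile) for both against control, and from -0.01 to -0.0454 with the length trend removed for both against *R. flavefaciens*. The median of all genes moved as well. For both against control it went from 0.000724 to -0.00605 (quantile normalization) and 0.0323 (75th percentile). For both against *R. flavefaciens* it went from 0.00188 to -0.0288 with the length trend removed.

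Leaving out each mouse, the members called ranged from 0 to 2 for *R. flavefaciens* against control, 0 to 3 for both against control, 2 to 9 for both against *R. flavefaciens*, 1 to 6 for duloxetine averaged and 0 to 1 for *R. flavefaciens* averaged, and all genes called from 0 to 616, 5 to 154, 47 to 577, 46 to 260 and 1 to 135. The members at an unadjusted p under 0.05 ranged from 1 to 3 for duloxetine against control, 7 to 19 for *R. flavefaciens* against control, 5 to 17 for both against duloxetine and 8 to 18 for the interaction, and those of all genes from 3.06 to 4.69, 11.5 to 22.7, 4.18 to 8.81 and 5.56 to 9.64 percent. *Zranb2* kept its call against *R. flavefaciens* in each of these fits. Adjusted p of *Zranb2* against *R. flavefaciens* ran from 0.000105 to 0.0967 over the other alternatives (limma, edgeR and DESeq2), the highest in the fit of only the groups compared, where *Srsf5*, *Sf3b1*, *Snrpb* and *Rbm4* were lost too. Low members such as *Rbm4* were measured with few reads, and what depth adds to their spread was not tested.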
